A study of Mus musculus with 4 samples.

Results

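Cxcr3, Cxcr4, Cxcr5, Cxcr6, Ccr2, Ccr4, Ccr6 and Ccr8 encode chemokine receptors that direct effector and regulatory T cells into tissues. Cytosine methylation was followed at these 8 of the 49943 genes in the mouse RefSeq annotation. The positions used lie inside the mm10 gene bounds or within 5 kb on either side of them, and have at least 5 reads in each library compared. The loci hold 2021 of the 25358586 cytosine positions listed on the chromosomes analysed, and 255 of these have at least 5 reads in all 4 libraries. In mm10 (GRCm38) the genes lie at chrX:101731535-101734147 (Cxcr3), chr1:128588199-128592299 (Cxcr4), chr9:44511787-44526444 (Cxcr5), chr9:123806477-123811754 (Cxcr6), chr9:124101918-124109140 (Ccr2), chr9:114490316-114505476 (Ccr4), chr17:8236041-8258519 (Ccr6) and chr9:120092133-120094906 (Ccr8). Of the 8, 5 thus lie on chromosome 9.

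Whole-genome bisulfite sequencing reads an unmethylated cytosine as thymine and a methylated one as cytosine, so a methylation level is the share of reads that kept the cytosine. The libraries hold splenic CD4+ T cells of the NOD strain, an inbred mouse line prone to autoimmune diabetes. Both OX40L-JAG1 libraries came from mice given OX40L and Jagged-1 proteins, which bind the costimulatory receptor OX40 and Notch receptors, and both PBS libraries from mice given PBS alone. Dosing was weekly for 3 weeks from 6 weeks of age, and the mice were 10 weeks old at collection, 1 week past their final dose. The groups were OX40L-JAG1 Treg, OX40L-JAG1 Teff, PBS Treg and PBS Teff, with 1 library each, where Treg are CD4+CD25hi and Teff are CD4+CD25- cells separated by FACS. The labels give neither the sex nor the number of animals behind a library. CD25 is also carried by activated conventional T cells, and a CD25- gate takes in naive as well as effector cells. In such bulk libraries, a change of methylation within cells and a change in the mix of cells cannot be told apart.

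Chemokine receptors are G protein-coupled receptors that move cells up a gradient of their ligand. CXCR3 marks type 1 effector cells, CCR4 and CCR8 are carried by type 2 cells and many Treg, CCR6 by Th17 cells and their Treg counterparts, and CXCR5 by follicular T cells. Promoters and distal elements of such lineage genes often lose methylation in the cells that use them, while most other CpG dinucleotides of the genome stay methylated.

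The promoters of Cxcr3, Cxcr4, Ccr4 and Ccr8 are shown because they span a CpG-rich promoter, CpG-poor promoters and the member promoter best covered by reads. They are RefSeq sequences of the build GRCm38.p6, 250 bases before to 50 bases after the start site, 5′ to 3′ on the gene's strand, with each CG in capitals. They are Cxcr3 at chrX:101734098-101734397 (minus strand), Cxcr4 at chr1:128592250-128592549 (minus strand), Ccr4 at chr9:114496495-114496794 (minus strand) and Ccr8 at chr9:120091883-120092182 (plus strand).
Cxcr3: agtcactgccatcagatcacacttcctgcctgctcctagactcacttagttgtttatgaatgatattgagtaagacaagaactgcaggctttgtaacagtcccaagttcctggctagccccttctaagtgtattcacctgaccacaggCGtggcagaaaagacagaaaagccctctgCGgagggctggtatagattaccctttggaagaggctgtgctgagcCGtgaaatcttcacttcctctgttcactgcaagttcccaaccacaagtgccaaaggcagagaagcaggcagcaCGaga
Cxcr4: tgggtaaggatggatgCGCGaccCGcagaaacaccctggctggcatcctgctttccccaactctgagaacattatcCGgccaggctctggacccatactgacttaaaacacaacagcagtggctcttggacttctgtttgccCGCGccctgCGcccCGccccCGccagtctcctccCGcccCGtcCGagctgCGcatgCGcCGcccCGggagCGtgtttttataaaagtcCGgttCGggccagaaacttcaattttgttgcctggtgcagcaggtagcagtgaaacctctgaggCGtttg
Ccr4: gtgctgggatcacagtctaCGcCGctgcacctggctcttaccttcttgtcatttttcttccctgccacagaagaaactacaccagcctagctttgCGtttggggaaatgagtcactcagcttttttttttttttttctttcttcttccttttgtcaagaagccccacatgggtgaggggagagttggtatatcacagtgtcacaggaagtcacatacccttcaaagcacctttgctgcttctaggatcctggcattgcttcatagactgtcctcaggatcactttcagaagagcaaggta
Ccr8: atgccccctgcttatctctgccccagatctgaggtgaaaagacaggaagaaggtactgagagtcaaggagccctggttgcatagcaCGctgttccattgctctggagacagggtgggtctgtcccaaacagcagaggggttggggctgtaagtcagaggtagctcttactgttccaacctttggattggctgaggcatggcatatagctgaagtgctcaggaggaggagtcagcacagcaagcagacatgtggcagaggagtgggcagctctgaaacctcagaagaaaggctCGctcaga

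The printed Cxcr4 run holds 20 CG dinucleotides, as many as or more than which were found in 26.5% of the 32851 mouse promoters of the same length. Those of Cxcr3, Ccr4 and Ccr8 hold 4, 3 and 2, with as many or more in 68.6%, 76.7% and 85.9% of promoters. The promoters of Cxcr6, Ccr2 and Ccr6, not printed, hold 3, 1, and for the 2 Ccr6 start sites 2 and 10. Cxcr4 is thus the CpG-rich promoter among the runs shown.

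The promoter set used had no entry for Cxcr5, so its strand and start site were not set and no promoter level was taken for it. Whether a Cxcr5 window described below holds its promoter was not examined. Among the other members, Ccr4 was the only one with promoter positions read in all 4 libraries. At 4 positions, from -250 to -154 relative to its start site, 0 of 52 reads were methylated in OX40L-JAG1 Treg, 1.37% of 73 reads in OX40L-JAG1 Teff, 2.17% of 46 reads in PBS Treg and 0 of 109 reads in PBS Teff. The counts of 0 allow a level of up to 5.77% in OX40L-JAG1 Treg and 2.75% in PBS Teff, taken here and below as 3 divided by the reads. The Ccr4 promoter was thus nearly free of methylation in every library. The first base printed belongs to a CG whose other base lies outside the run.

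The Cxcr4 promoter also had no methylated read, with 0 of 15 reads in OX40L-JAG1 Treg, 0 of 5 in OX40L-JAG1 Teff, 0 of 31 in PBS Treg and 0 of 24 in PBS Teff. At these depths a level of up to 20% in OX40L-JAG1 Treg, 60% in OX40L-JAG1 Teff, 9.68% in PBS Treg and 12.5% in PBS Teff is allowed, and the 8 positions read differed between libraries. At Cxcr3, promoter reads were of intermediate methylation, with 33.3% of 12 reads in OX40L-JAG1 Teff, 22.2% of 18 reads in PBS Treg and 32.5% of 40 reads in PBS Teff. OX40L-JAG1 Treg had no position there with 5 reads. Cxcr3 lies on chromosome X and the sex of the mice is not given, and the part of this in its levels was not tested. At Ccr8, 0 of 11 reads were methylated in OX40L-JAG1 Treg, 18.2% of 11 in OX40L-JAG1 Teff and 33.3% of 18 in PBS Teff, and PBS Treg had no position. The count of 0 allows up to 27.3%. These last 2 promoters rest on so few reads that no order of the libraries could be read from them.

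The listed reads numbered 103584075 for OX40L-JAG1 Treg, 159291553 for OX40L-JAG1 Teff, 131555634 for PBS Treg and 208402911 for PBS Teff, with a median of 9, 11, 10 and 14 reads at positions read in all libraries. The sort was checked with Foxp3, the lineage factor of Treg. Its level over 42 shared positions was 64.9% in OX40L-JAG1 Treg, 81.7% in OX40L-JAG1 Teff, 70.0% in PBS Treg and 87.8% in PBS Teff, lower in Treg of both treatments. Over all positions read in every library the level was 82.1%, 81.6%, 84.9% and 85.2% in the same order of libraries. With 1 library per group there is no replicate error, so each test compares libraries and not conditions, and all intervals (95%) cover counting error only. Since 1 read can cover several positions, a sum of reads may rest on fewer DNA molecules.

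Summed over the 8 loci, the receptors were less methylated than the genome in all 4 libraries. Over the 255 shared positions the level was 67.0% in OX40L-JAG1 Treg, 66.3% in OX40L-JAG1 Teff, 69.1% in PBS Treg and 66.5% in PBS Teff. At 7 shared positions, Cxcr6 had 86.7% in OX40L-JAG1 Treg, 60.3% in OX40L-JAG1 Teff, 92.2% in PBS Treg and 73.3% in PBS Teff. Both Treg values stood above the genome, but their intervals (73.8 to 93.7 and 81.5 to 96.9) included its levels. Over each library's own positions at Cxcr6, both lay below those levels, at 73.4% of 233 reads in OX40L-JAG1 Treg and 76.2% of 185 in PBS Treg. Ccr2, the receptor for CCL2 on monocytes and memory T cells, had the lowest pooled level in every library. Its 19 shared positions had 39.8% in OX40L-JAG1 Treg, 41.3% in OX40L-JAG1 Teff, 31.4% in PBS Treg and 33.0% in PBS Teff. Ccr8, the CCL1 receptor, was at 78.7%, 78.1%, 75.8% and 79.1% in these libraries over 31 positions, and Ccr4, the CCL17 and CCL22 receptor, at 74.7%, 71.6%, 74.1% and 70.5% over 93 positions. For comparison, the median over all gene loci was 83.1% in OX40L-JAG1 Treg, 82.5% in OX40L-JAG1 Teff, 86.0% in PBS Treg and 86.3% in PBS Teff. Cxcr3, the receptor for CXCL9, CXCL10 and CXCL11, had 56.1% in OX40L-JAG1 Treg, 52.9% in OX40L-JAG1 Teff, 58.0% in PBS Treg and 44.2% in PBS Teff over 13 positions. In PBS Teff, the deepest library, the order of the pooled levels from low to high was Ccr2 (33.0%), Cxcr3 (44.2%), Cxcr5 (60.8%), Cxcr4 (67.1%), Ccr4 (70.5%), Ccr6 (71.5%), Cxcr6 (73.3%) and Ccr8 (79.1%). From Cxcr5 upwards the intervals of neighbours in that order overlapped, while those of Ccr2, Cxcr3 and Cxcr5 did not. With each position counted once, the order in PBS Teff was another, with Ccr2 (37.6%) still lowest, Cxcr4 (43.9%) second, then Cxcr3 (57.6%) and Cxcr5 (64.4%), and Cxcr6 (77.9%) highest. In OX40L-JAG1 Treg, Cxcr4 at 44.3% then lay below Ccr2 at 49.0%.

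**Figure D1:**
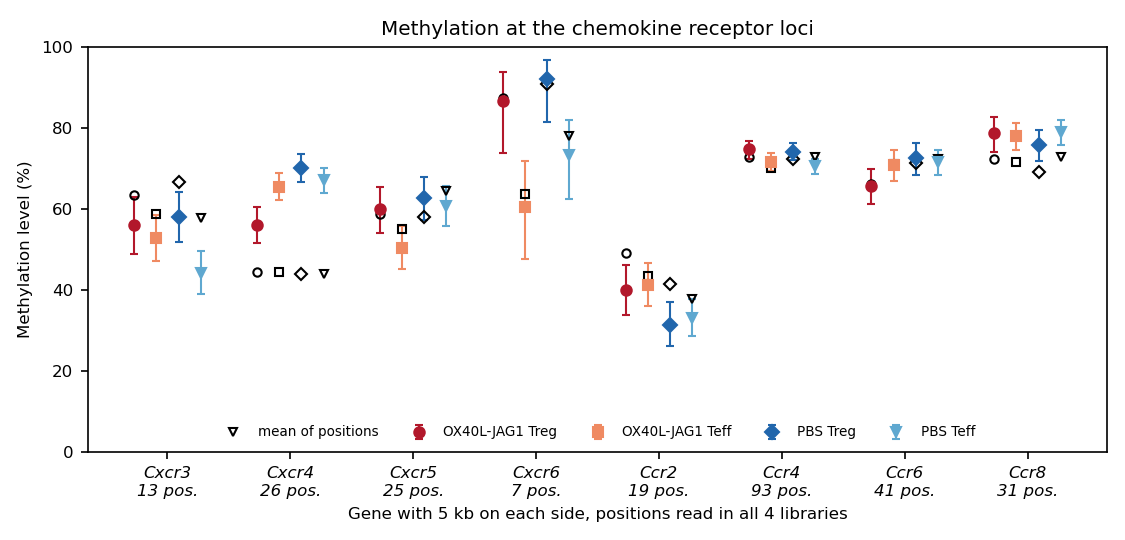
Methylation level (%) of each receptor gene with 5 kb on each side, over positions read in all 4 libraries (numbers under the names). Coloured symbols are pooled levels with 95% Wilson intervals, and open symbols are means in which each position counts once. The pooled level of Ccr2 is the lowest, between 31.4% and 41.3%, while the open symbol of Cxcr4 lies below that of Ccr2 in OX40L-JAG1 Treg (44.3% and 49.0%), and Cxcr6, with 7 positions, has the widest intervals.

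Cxcr4, the CXCL12 receptor that holds cells in bone marrow and lymphoid tissue, shows what a pooled locus level can hide. Its pooled level over 26 positions was 56.0% in OX40L-JAG1 Treg, 65.5% in OX40L-JAG1 Teff, 70.2% in PBS Treg and 67.1% in PBS Teff. With each position counted once, the levels were 44.3%, 44.4%, 43.9% and 43.9% in the same libraries. The locus splits into unmethylated and methylated stretches, with 12 positions at 80% or more and 14 at 20% or less in OX40L-JAG1 Treg, and the pooled level moves with where the reads fall. The treatment difference in Treg at this locus, taken over 36 positions, was -12.2 points pooled and 3.32 points with equal weights, so it has no settled direction.

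The widest of the 32 locus differences was found at Cxcr6, the CXCL16 receptor of tissue-resident T cells. OX40L-JAG1 Treg had 82.3% of 113 reads methylated and OX40L-JAG1 Teff 60.2% of 128 reads, a difference of 22.1 points (interval 10.7 to 32.6) over 19 positions, of which 12 were higher and 3 lower in Treg. In PBS Treg the level was 81.2% of 117 reads, against 74.2% of 151 reads in PBS Teff, 7.02 points over 17 positions (interval -3.19 to 16.7). Treatment differences at Cxcr6 were -9.31 points in Treg over 14 positions and -9.30 points in Teff over 27 positions. Each comparison used its own positions, so the values cannot be set against each other. At the 7 positions shared by all libraries, OX40L-JAG1 Treg had 86.7% and PBS Treg 92.2%. OX40L-JAG1 Teff had 60.3% and PBS Teff 73.3% at the same positions. Across all gene loci with at least 10 positions, differences between OX40L-JAG1 Treg and OX40L-JAG1 Teff had a 5th percentile of -4.61 and a 95th percentile of 5.66 points, though the number of positions was not matched. No 1-kb window carried this Cxcr6 difference into a test between Treg and Teff, since none had 5 shared positions. No locus was given a p-value.

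Reads were then summed in fixed windows of 1 kb with at least 5 positions read in both libraries, and each window was tested by the two-sided Fisher's exact test with Benjamini-Hochberg adjustment over the genome. Calls required both an adjusted p below 0.05 and a gap of 20 points or more. The treatment comparisons share no library with each other, nor do the 2 cell type comparisons, but each library serves in 1 of each kind. Calls at the receptors were few. Between OX40L-JAG1 Teff and PBS Teff, 1 of 52 windows was lower and 0 were higher, beside 0.361% lower and 0.0567% higher (0.418% in either direction) among all windows tested. Between OX40L-JAG1 Treg and PBS Treg, 0 of 35 windows were lower and 1 was higher, beside 0.0574% and 0.0145% (0.0719% either way) of all windows. PBS Treg against PBS Teff gave 1 lower and 1 higher of 46 windows, beside 0.151% and 0.0814% (0.232% either way). OX40L-JAG1 Treg against OX40L-JAG1 Teff gave 0 lower and 1 higher of 33 windows, beside 0.0465% and 0.0387% (0.0853% either way). These 5 calls fell in 3 windows, 2 at Ccr4 and 1 at Cxcr5.

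The medians over all receptor windows lay within 3 points of 0. The median difference of the receptor windows was -2.62 points for the treatment in Teff, against -2.96 over all windows, and -1.06 for the treatment in Treg, against -2.17. It was -0.366 points between Treg and Teff of PBS mice, against -0.170 over all windows, and 0.623 in the OX40L-JAG1 pair, against 0.408. At an unadjusted p under 0.05, the counts were 8 of 52, 4 of 35, 9 of 46 and 3 of 33 windows in these 4 comparisons, or 15.4%, 11.4%, 19.6% and 9.09%. Over all windows tested the shares were 12.0%, 8.53%, 4.99% and 4.83%. Median reads per receptor window were 74 and 94 in the PBS pair, against 62 and 79 over all windows. In the OX40L-JAG1 pair they were 83 and 94, against 59 and 73. For the treatment they were 82 and 86 against 61 and 72 in Treg, and 65.5 and 73.5 against 65 and 75 in Teff. The part of depth in these shares was not tested. Of 26 receptor windows with 5 positions in all libraries, 0 were called in the test of whether the treatment difference differs between Treg and Teff, beside 0.0108% of all windows.

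**Figure D2:**
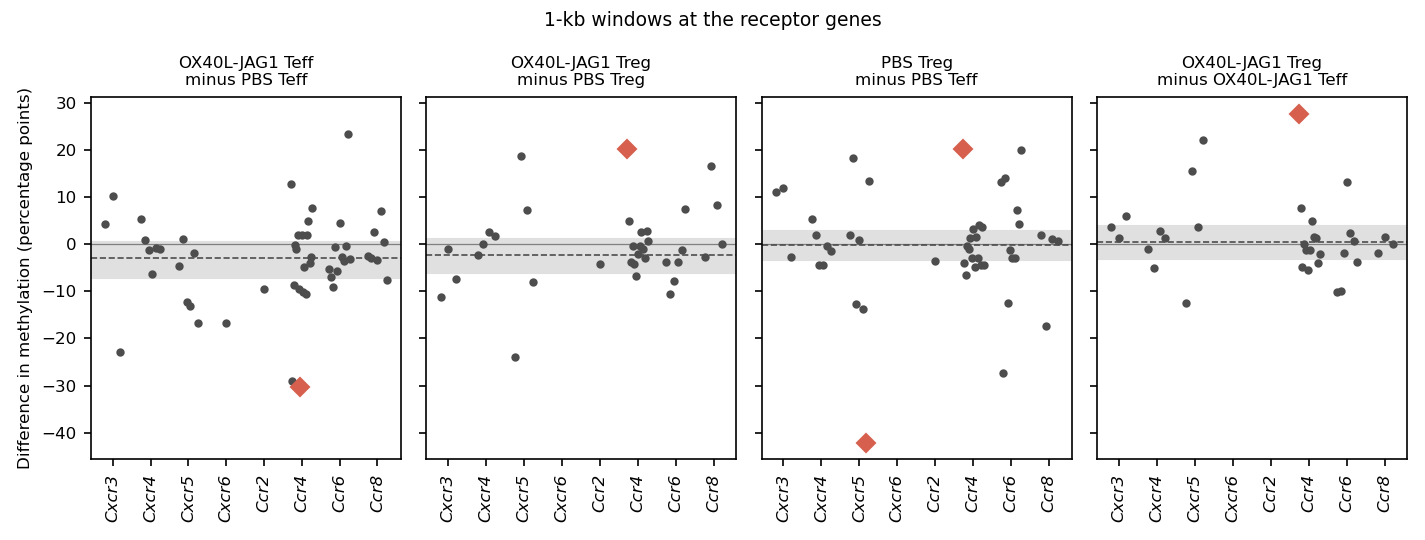
Difference in methylation (percentage points) of each tested 1-kb window at the 8 receptor genes, in 4 panels for the 4 comparisons. Red diamonds are called windows; the dashed line is the median and the grey band runs between the quartiles of all windows in the genome. Ccr4 holds the called window of the treatment comparison in Teff (-30.4 points) and the higher one in the other panels (20.3, 20.3 and 27.7 points), and Cxcr5 the one at -42.1 points.

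Of the 5 calls, 3 fell in a single window past the 3′ end of Ccr4. The window from 114485001 to 114486000 on chromosome 9 (mm10) lies 10544 to 11543 bases after the start site, and no other gene of the annotation lies within 5 kb of it. Its 7 positions read in all libraries were methylated in 78.0% of 232 reads in OX40L-JAG1 Treg, 50.3% of 171 reads in OX40L-JAG1 Teff, 57.7% of 194 reads in PBS Treg and 37.5% of 323 reads in PBS Teff. Treg stood above Teff under both treatments, and OX40L-JAG1 above PBS in both cell types. The difference between Treg and Teff was 27.7 points in OX40L-JAG1 mice (interval 18.3 to 36.6, adjusted p = 2.94e-05, Fisher's exact test) and 20.3 points in PBS mice (11.4 to 28.7, adjusted p = 0.0059, Fisher's exact test). OX40L-JAG1 Treg stood 20.3 points above PBS Treg (11.4 to 28.8, adjusted p = 0.0125, Fisher's exact test). Between the Teff libraries the difference was 12.8 points (3.66 to 21.8) and was not called, at an adjusted p of 0.179 in the same exact test. Whether the treatment difference differs between Treg and Teff was tested directly and was not called, with a difference of differences of 7.45 points and an adjusted p of 0.981 from the Wald test.

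Single positions show how these sums arise. Of the 7 positions, 6 lie inside the 5-kb flank, 4547 to 4977 bases past the gene's end, and the other, 5070 bases past it, lies just outside. At 114485387, 36 of 43 reads were methylated in OX40L-JAG1 Treg, 15 of 32 in OX40L-JAG1 Teff, 22 of 39 in PBS Treg and 9 of 59 in PBS Teff. At 114485377, 10 bases away, the counts were 31 of 45, 12 of 30, 14 of 36 and 10 of 54 in the same libraries. OX40L-JAG1 Treg was the highest and PBS Teff the lowest library at both. At 114485373 they were 27 of 45 in OX40L-JAG1 Treg, 9 of 28 in OX40L-JAG1 Teff, 10 of 34 in PBS Treg and 10 of 52 in PBS Teff. At 114485339 they were 28 of 31 in OX40L-JAG1 Treg, 9 of 22 in OX40L-JAG1 Teff, 20 of 26 in PBS Treg and 21 of 42 in PBS Teff, and here OX40L-JAG1 Teff was the lowest. These 4 positions lie close enough to share reads, so they may not be independent.

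The next positions stood 362 bases away. At 114485749, 28 of 31 reads were methylated in OX40L-JAG1 Treg, 18 of 28 in OX40L-JAG1 Teff, 22 of 27 in PBS Treg and 28 of 54 in PBS Teff. At 114485769 the counts were 20 of 24, 18 of 25, 21 of 27 and 32 of 48 in the same libraries. At both, OX40L-JAG1 Treg was again the highest and PBS Teff the lowest, and both Treg libraries stood above both Teff libraries. Within the 5-kb flank alone, the 6 positions together gave 77.6% in OX40L-JAG1 Treg (interval 71.7 to 82.6), 49.1% in OX40L-JAG1 Teff (41.6 to 56.7), 57.7% in PBS Treg (50.5 to 64.5) and 35.6% in PBS Teff (30.5 to 41.1). With positions as strata, OX40L-JAG1 Treg was higher than PBS Treg and than OX40L-JAG1 Teff at 7 of 7 positions, and PBS Treg higher than PBS Teff at 6 of 7. In that setting the mean difference of the PBS pair was 17.3 points, under the 20 required for a call. The window was read deeply, with a mean of 27.7 reads per position in OX40L-JAG1 Treg and 32.3 in PBS Teff, against a median of 6 and 7 over all receptor positions in these libraries. The part of this depth in the result was not tested. With the counts divided by 3, to allow for fewer molecules than reads, no call remained at any receptor, and with 2-kb windows none remained here.

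**Figure D3:**
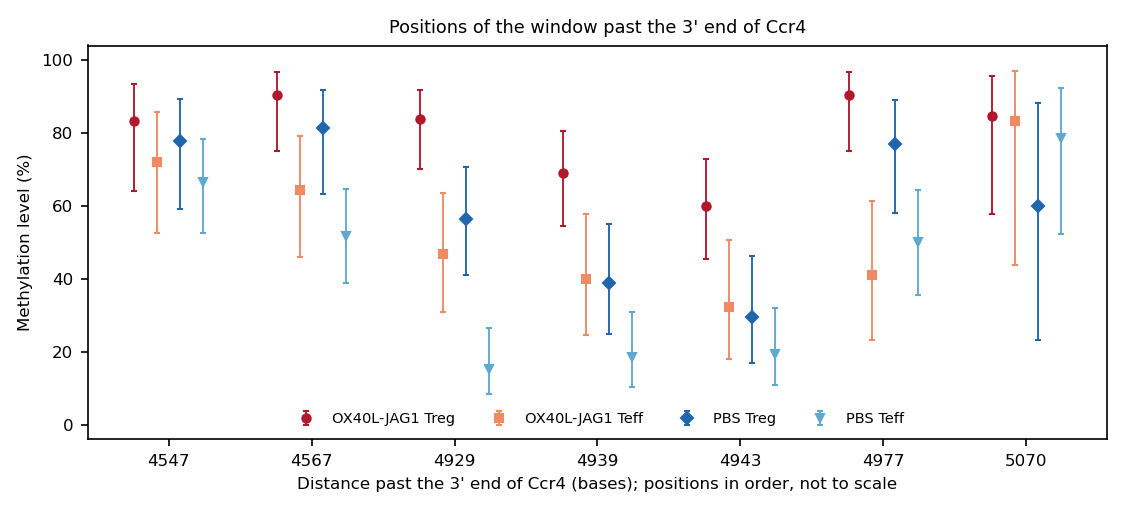
Methylation level (%) with 95% Wilson intervals at the 7 positions of the window past the 3′ end of Ccr4, in order of distance from the gene's end (bases, not to scale), for the 4 libraries. OX40L-JAG1 Treg is the highest library at each position, and PBS Teff is lowest at 5 of the 7.

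Another Ccr4 window was called for the treatment in Teff, in the other direction. It runs from 114495001 to 114496000 on chromosome 9, inside the gene and 544 to 1543 bases after the start site. OX40L-JAG1 Teff had 53.1% of 64 reads methylated, and PBS Teff 83.5% of 97 reads, a difference of -30.4 points (-43.9 to -15.8, adjusted p = 0.0127, Fisher's exact test). Of its 11 positions, 10 were lower and 1 was higher in OX40L-JAG1 Teff, each with 5 to 11 reads per library. PBS Treg had 73.1% of 78 reads at its own positions, and OX40L-JAG1 Treg only 1 position with 5 reads, so the treatment in Treg and the OX40L-JAG1 pair could not be tested there. The window adjoins the start window, from 114496001, where all libraries were low. In that neighbour OX40L-JAG1 Treg had 1.10% of 91 reads methylated, OX40L-JAG1 Teff 9.05% of 199, PBS Treg 18.0% of 167 and PBS Teff 5.06% of 237, each over its own positions. Farther into the gene, at 114491001 to 114492000, levels were 95.8%, 95.4%, 94.6% and 96.5% in OX40L-JAG1 Treg, OX40L-JAG1 Teff, PBS Treg and PBS Teff, each over its own positions. The called window thus lies between a little methylated start and, farther into the gene, a nearly fully methylated stretch in every library. On that side the adjoining window, from 114494001, was at 67.9% in OX40L-JAG1 Treg and 66.9% in OX40L-JAG1 Teff. PBS Treg had 71.3% and PBS Teff 78.9% in it, each library over its own positions. The called window lost its call with other window sizes or starts, or with the counts divided by 3. A minimum of 10 reads left no position to test in it, since OX40L-JAG1 Teff had at most 7 reads at a position there.

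**Figure D4:**
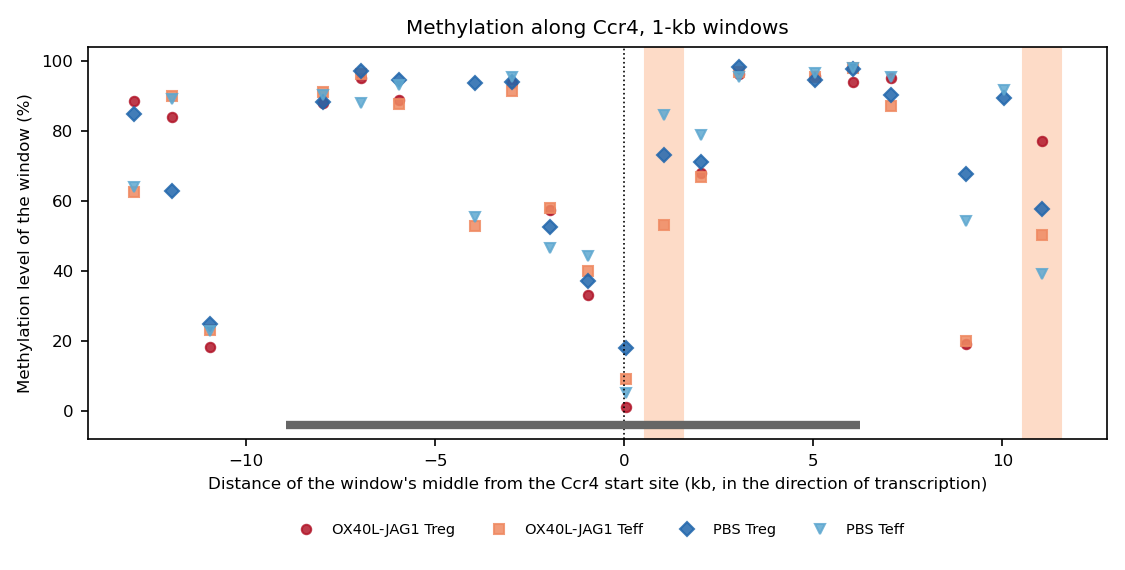
Methylation level (%) of 1-kb windows along Ccr4 by distance (kb) from the start site in the direction of transcription, for the 4 libraries, each over its own positions. Shaded stripes are the called windows, the grey bar is the gene and the dotted line the start site. Levels dip at the start site and exceed 90% in parts of the gene body, and the libraries part in the shaded windows.

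Cxcr5, the CXCL13 receptor that brings follicular T cells to B cells, had 1 called window between Treg and Teff of PBS mice. The window from 44526001 to 44527000 on chromosome 9 spans the upper bound of the gene at 44526444. PBS Treg had 20% of 45 reads methylated and PBS Teff 62.1% of 66 reads, a difference of -42.1 points (-56.2 to -23.8, adjusted p = 0.00744, Fisher's exact test). All 8 positions were lower in PBS Treg. In OX40L-JAG1 mice too few positions were shared for a test. Treg there had 5.88% of 17 reads at 3 positions and Teff 51.7% of 29 reads at 5 positions, over its own positions each. At the 2 positions read in all libraries, 1 of 12 reads was methylated in OX40L-JAG1 Treg, 4 of 13 in OX40L-JAG1 Teff, 1 of 11 in PBS Treg and 8 of 20 in PBS Teff. The Treg libraries were the lower ones in each of these values, with few reads. Treatment in Teff gave no call in this window, with 51.7% in OX40L-JAG1 Teff and 53.5% in PBS Teff over 5 positions, -1.76 points (-24.0 to 20.5). The call between PBS Treg and PBS Teff was kept with 2-kb windows, and was lost with 500-base or shifted windows, or the counts divided by 3. A minimum of 10 reads left no position to test, since PBS Treg had at most 7 reads at a position there.

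The Treg libraries were not the lower ones throughout Cxcr5. In the window from 44529001 on, past the upper bound of the gene, 70.8% of 130 reads were methylated in OX40L-JAG1 Treg, 48.6% of 109 in OX40L-JAG1 Teff, 78.8% of 132 in PBS Treg and 65.4% of 127 in PBS Teff. The Treg libraries were the higher ones here, by 22.1 points in OX40L-JAG1 mice (9.69 to 33.8, adjusted p = 0.205, Fisher's exact test) and 13.4 points in PBS mice (2.51 to 24.0, adjusted p = 0.792, Fisher's exact test). With positions as strata the mean differences were 16.9 points in the OX40L-JAG1 pair and 5.91 points in the PBS pair, the last with 3 positions higher and 1 lower of 6. Neither difference was called in either way. Windows from 44511001 to 44517000 also lie within 5 kb of Bcl9l.

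At Ccr2 the fixed windows upstream of the gene held under 5 shared positions, and no window was called. With windows starting 500 bases later, one was called from -1682 to -683 relative to the start site. There OX40L-JAG1 Teff had 54.4% of 57 reads methylated and PBS Teff 19.3% of 83 reads, a difference of 35.1 points (19.0 to 49.2, adjusted p = 0.00626, Fisher's exact test) over 5 positions, 4 of them higher and 0 lower. The Treg libraries, compared at 4 positions, had 75.7% of 37 reads in OX40L-JAG1 Treg and 42.5% of 40 reads in PBS Treg, 33.2 points (11.2 to 50.9), which was not tested for want of positions. With 2-kb windows the same pair had 5 positions and was not called, at 66.7% of 45 reads in OX40L-JAG1 Treg and 41.7% of 48 in PBS Treg, 25 points (4.74 to 42.5), with 3 positions higher and 2 lower. At -1021 there were 12 of 15 reads methylated in OX40L-JAG1 Treg, 15 of 22 in OX40L-JAG1 Teff, 8 of 16 in PBS Treg and 8 of 26 in PBS Teff. At -979 the counts were 5 of 10, 6 of 17, 3 of 14 and 4 of 27 in the same libraries. At -1256 they were 6 of 6, 4 of 5, 1 of 5 and 0 of 10. Both OX40L-JAG1 libraries were above both PBS libraries at these 3 positions. At -748, PBS Treg was the highest instead, with 5 of 5 reads, against 5 of 6 in OX40L-JAG1 Treg. In the shifted window PBS Treg also stood above PBS Teff at 4 of 4 positions, by 19.6 points (1.79 to 37.0), untested for want of positions. The OX40L-JAG1 pair differed there by 9.25 points (-9.93 to 27.2) and was not called. Because only shifted or 2-kb windows give the call between the Teff libraries, it is not among the 5 calls above.

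**Figure D5:**
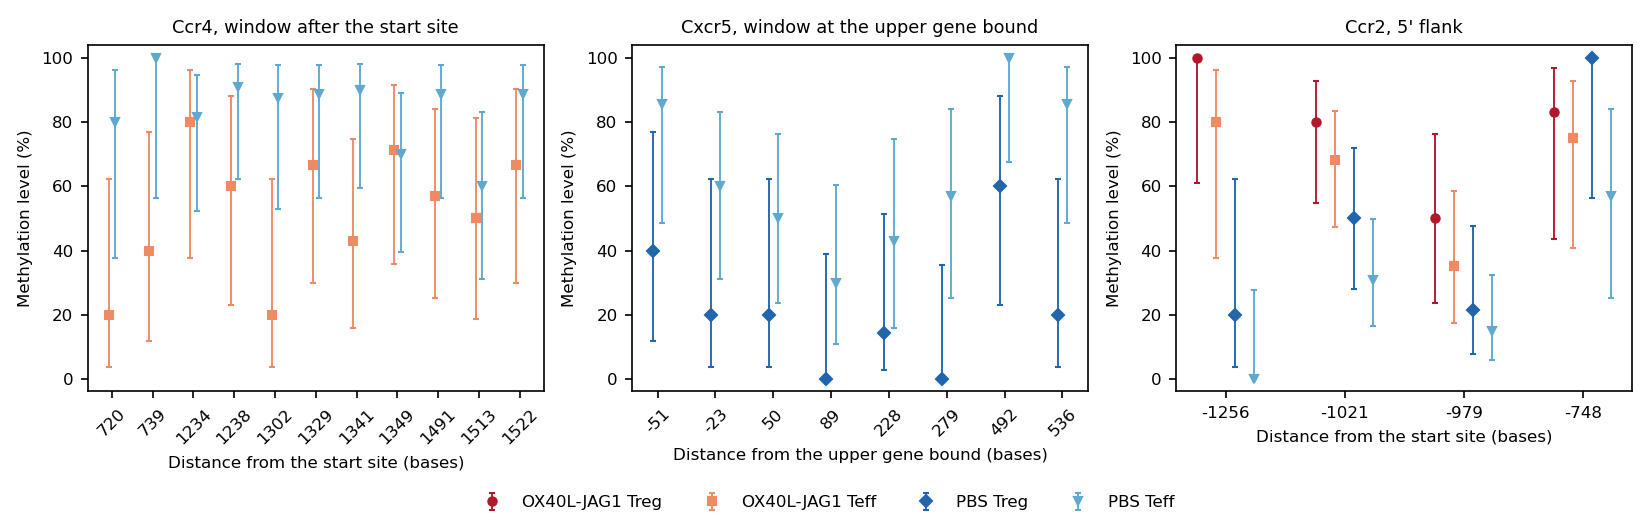
Methylation level (%) with 95% Wilson intervals at single positions of the Ccr4 window after the start site, the Cxcr5 window and the Ccr2 5′ flank, by distance (bases, positions in order, not to scale). The left panel sets OX40L-JAG1 Teff beside PBS Teff (10 of 11 positions lower), the middle one PBS Treg beside PBS Teff (8 of 8 lower), and the right one all 4 libraries at 4 positions of the Ccr2 flank.

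For the other receptors, the window with the largest difference among those tested in all comparisons is given, and none of these was called. Cxcr3 had 3 such windows. In the window from 101738001 on chromosome X, from -4853 to -3854 relative to its start site, OX40L-JAG1 Teff had 54.8% of 31 reads and PBS Teff 77.8% of 36 reads, -22.9 points (-43.0 to -0.409, adjusted p = 0.468, Fisher's exact test). The other 3 comparisons of this window ranged from -7.35 to 6.11 points. In the 3′ flank of Cxcr3, from 101728001, the Teff libraries had 49.0% of 249 reads in OX40L-JAG1 Teff and 38.8% of 294 in PBS Teff, 10.2 points (1.85 to 18.4, adjusted p = 0.278, Fisher's exact test). The mean difference of this pair with positions as strata was 4.75 points, with 6 positions higher and 3 lower. PBS Treg stood 12.0 points above PBS Teff there (2.99 to 20.8), or 3.11 points with positions as strata, and was not called. OX40L-JAG1 Treg differed from PBS Treg by -1.06 points (-11.9 to 9.84) and from OX40L-JAG1 Teff by 1.31 points (-9.17 to 11.7). PBS Teff was thus the low library in the pooled levels of this window.

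At Cxcr4 the 4 windows tested in all comparisons differed by -5.13 to 2.81 points. Around its start site, from 128592001 to 128593000 on chromosome 1, 0 of 28 reads were methylated in OX40L-JAG1 Treg, 2 of 39 in OX40L-JAG1 Teff, 0 of 39 in PBS Treg and 4 of 63 in PBS Teff at 5 shared positions. The counts of 0 allow up to 10.7% in OX40L-JAG1 Treg and 7.69% in PBS Treg. In the 5′ flank, from 128596001, the level was 96.5% of 172 reads in OX40L-JAG1 Treg, 95.2% of 331 in OX40L-JAG1 Teff, 94.8% of 326 in PBS Treg and 96.2% of 423 in PBS Teff, at 6 shared positions. The 4 differences there ranged from -1.43 to 1.73 points, and the interval farthest from 0 reached 5.25 points.

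Ccr6, the CCL20 receptor of Th17 cells, had 4 windows tested in all comparisons and none called. In the one from 8251001 on chromosome 17, inside the gene, OX40L-JAG1 Treg had 78.4% of 51 reads and OX40L-JAG1 Teff 65.2% of 69 reads, 13.2 points (-3.33 to 28.1, adjusted p = 1, Fisher's exact test). PBS Treg had 77.8% of 63 reads, against 70.4% of 125 reads in PBS Teff, 7.38 points (-6.40 to 19.4). Other windows went the opposite way. In the one from 8239001, the Treg library was the lower one in both pairs, with differences of -10.1 points in OX40L-JAG1 mice (interval from -25.0 to 4.74) and -12.5 points in PBS mice (-29.4 to 6.24). In the flanking window from 8233001, PBS Treg had 3.70% of 27 reads and PBS Teff 31.0% of 29 reads, -27.3 points (-45.8 to -7.28, adjusted p = 0.688, Fisher's exact test). The windows on either side of it went the other way in the PBS pair. Their differences were 13.2 points from 8232001 (-5.24 to 30.4) and 14.1 points from 8234001 (-5.31 to 32.6). In the window from 8255001, which also lies within 5 kb of Gm33799 and Gm8465, PBS Treg had 88.0% of 75 reads and PBS Teff 68.1% of 72 reads, 19.9 points (6.59 to 32.7, adjusted p = 0.462, Fisher's exact test). With positions as strata, the same comparison was called, with a mean of 20.3 points and an adjusted p of 0.0441 (Cochran-Mantel-Haenszel test).

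At Ccr8, which is carried by activated Treg of tissues, the window from 120095001 to 120096000 on chromosome 9, just past the gene's 3′ end, had its lowest pooled level in PBS Treg. At 7 shared positions the level was 75.8% of 99 reads in OX40L-JAG1 Treg, 77.7% of 121 in OX40L-JAG1 Teff, 58.0% of 88 in PBS Treg and 79.7% of 128 in PBS Teff. Over the positions of each comparison, the difference of PBS Treg from PBS Teff was -17.4 points (-28.1 to -6.52, adjusted p = 0.312, Fisher's exact test), and that of OX40L-JAG1 Treg from PBS Treg was 16.6 points (3.15 to 29.3, adjusted p = 0.43, Fisher's exact test). The OX40L-JAG1 pair differed by -1.93 points (-13.3 to 9.10). With positions as strata these differences were smaller, at -6.39 points for PBS Treg against PBS Teff (3 positions higher, 5 lower) and 8.32 points for OX40L-JAG1 Treg against PBS Treg (4 higher, 0 lower). That of the OX40L-JAG1 pair was 0.477 points, of the opposite sign to the pooled one. The test of whether the treatment difference differs between Treg and Teff gave 19.8 points, with an adjusted p of 0.981 from the Wald test. None of these was called.

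At Cxcr6, the only window tested, from 123809001, also lies within 5 kb of Fyco1. It had 83.3% of 30 reads in OX40L-JAG1 Teff and 100% of 51 reads in PBS Teff, -16.7 points (-33.6 to -5.00, adjusted p = 0.158, Fisher's exact test), and no window could be tested between Treg and Teff.

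Single positions gave no call at the receptors. Receptor positions had a median of 6 reads per library, or 7 in PBS Teff. At that depth even a full difference could not pass the adjustment over the genome, so the lack of calls says little. Of 585 positions tested for the treatment in Teff, 0 were called, beside 0.00768% lower and 0.000966% higher among all positions. For the treatment in Treg it was 0 of 353, beside 0.000198% and 1.65e-05%. The PBS pair had 0 of 519, beside 0.00435% and 0.0034%, and the OX40L-JAG1 pair 0 of 369, beside 0.000969% and 0.000417%. At an unadjusted p under 0.05, the counts were 12, 7, 13 and 9 positions in this order, or 2.05%, 1.98%, 2.50% and 2.44%, against 1.92%, 1.47%, 0.946% and 0.998% of all positions. The smallest adjusted p was 0.306, in the PBS pair.

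Genes around the receptors were counted in 4 lists. Of 14 ligand genes of these receptors, among them Cxcl9, Cxcl12, Ccl17 and Ccl20, none had a called window in any comparison. The windows tested were 96 for the treatment in Teff, 47 for that in Treg, 73 for the PBS pair and 52 for the OX40L-JAG1 pair. Over all windows, 0.418%, 0.0719%, 0.232% and 0.0853% were called either way in this order, so the lack of calls says little. Among 16 other chemokine receptors, 2 of the 108 windows tested for the treatment in Teff were called, beside 0.361% lower and 0.0567% higher among all windows. Both lay at Ccr9, the gut-homing CCL25 receptor, and were higher in OX40L-JAG1 Teff than in PBS Teff. They were at 65.8% against 19.3% (46.5 points, adjusted p = 0.00349, Fisher's exact test) and 64.2% against 30.4% (33.8 points, adjusted p = 0.0463, Fisher's exact test). In the PBS pair 0.151% of all windows were called lower and 0.0814% higher. Of the 87 windows of this list 1 was called there, at Cx3cr1, the fractalkine receptor. It had 63.3% in PBS Treg against 97.8% in PBS Teff (-34.5 points, adjusted p = 0.0308, Fisher's exact test).

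Among 18 genes of receptor signalling and desensitisation, 8 of 574 windows were lower and 2 higher in OX40L-JAG1 Teff than in PBS Teff, beside the same 0.361% and 0.0567% of all windows. The lower ones lay at Arrb1, Dock2, Pik3cg and Elmo1, and the widest was at Dock2, a guanine exchange factor that drives Rac in migrating lymphocytes, with 44.0% against 95.9% (-51.9 points, adjusted p = 2.43e-25, Fisher's exact test). Arrb1, an arrestin that desensitises receptors, was lower in OX40L-JAG1 in both cell types in the same flanking window, 36.9% against 81.9% in Treg and 54.5% against 87.1% in Teff. In Treg 2 of 223 windows were lower and 0 higher, beside 0.0574% and 0.0145% of all windows. The PBS pair had 4 lower and 2 higher of 461, beside 0.151% and 0.0814%. The OX40L-JAG1 pair had 0 of 269, beside 0.0853% either way.

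Of 10 transcription factors known to regulate such receptors in T cells, 5 had windows lower in OX40L-JAG1 Teff than in PBS Teff, with 9 lower and 0 higher of 431 windows, beside 0.361% lower and 0.0567% higher among all windows. They were Tbx21, Rora, Gata3, Batf and Irf4, and the widest difference was at Irf4, 27.3% against 75.5% (-48.2 points). For the treatment in Treg, 2 of 183 windows were lower, both at Batf, beside 0.0574% of all windows. The PBS pair had 3 lower and 1 higher of 337, beside 0.151% and 0.0814%. The OX40L-JAG1 pair had 3 lower of 217, beside 0.0465%.

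Marker genes of the sorted and of other cells were counted the same way. The shares of all windows were 0.361% lower and 0.0567% higher for the treatment in Teff, and 0.0574% and 0.0145% in Treg. They were 0.151% and 0.0814% for the PBS pair, and 0.0465% and 0.0387% for the OX40L-JAG1 pair. Of 4 Treg markers, Foxp3, Ikzf2 and Il2ra had windows lower in Treg, 28 of 90 windows in the OX40L-JAG1 pair and 54 of 151 in the PBS pair, where 1 Foxp3 window was higher. Ikzf2, the gene of the Treg factor Helios, also had 2 windows lower and 1 higher in OX40L-JAG1 Teff than in PBS Teff, and 2 lower in OX40L-JAG1 Treg than in PBS Treg. The 4 Treg markers had 166 and 85 windows tested in these comparisons. Of 6 T cell markers, 2 had calls. At Cd3e, a chain of the T cell receptor complex, the window from 44999001 was at 40.5% of 883 reads in OX40L-JAG1 Teff and 15.6% of 1089 reads in PBS Teff (24.9 points, adjusted p = 1.67e-30, Fisher's exact test). In the PBS pair it was at 38.5% of 774 reads in PBS Treg and 14.6% of 1064 reads in PBS Teff (23.9 points, adjusted p = 4.59e-27, Fisher's exact test). PBS Teff was thus the low library in both, as it was in the Ccr4 window past the 3′ end. Cd5 had 1 window lower in OX40L-JAG1 Teff than in PBS Teff and 2 in the PBS pair that were lower in Treg. Of 5 B cell markers, Pax5 had 1 window lower in OX40L-JAG1 Teff than in PBS Teff, 28.3% against 72.2%. Of 5 myeloid markers, Spi1 had 2 windows higher in Treg than in Teff in each pair, and 5 markers of CD8 T and NK cells had none called. Their part in the results at the receptors was not tested.

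For each receptor other than Cxcr6, which had under 10 shared positions, the listed gene whose levels in the 4 libraries were nearest was found among 55 candidates, by the mean absolute difference over the libraries. Ccr8 was nearest to Ccl1, one of its ligands, at 1.63 points, Ccr6 and Ccr4 to Cxcl12, at 2.15 and 2.33 points, and Ccr2 to Ccrl2, at 2.96 points. Cxcr4 was nearest to Gnb1 at 3.54 points, Cxcr3 to Ccl17 at 3.61 points and Cxcr5 to Rgs16 at 4.47 points. With 4 libraries such a likeness is a description of levels only.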

How the data were processed

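Per the submitters' processing notes, the authors used Trimmomatic and Bismark with the build mm10; their versions and any duplicate removal are not given in the sources used here. For each cytosine and library, the deposited table gives, per the file headers, a count of reads, a count of methylated reads and a level. The deposited level is a fraction from 0 to 1, and no deposited count of reads above 0 falls below 5. Strands are listed apart. Levels were recomputed from counts, and the windows, positions and the cell type by treatment test (Wald test on logits, with 0.5 added to every read count) used the thresholds stated with the results. Intervals are Wilson for levels and Newcombe for differences. The level that a count of 0 allows is instead 3 divided by the reads, which is rough where reads are few. Python 3.11.15, numpy 2.4.6, scipy 1.17.1, pandas 2.3.3 and numba 0.67.0 were used, and the tests were tested on simulated data. Bounds come from RefSeq for GRCm38.p6, a C57BL/6J reference, while the mice are NOD; sequence differences between strains were not tested. The members, gene lists and tests were chosen with earlier results of these data known. By rule, called windows were described, and for a member without one the window with the largest difference among those tested in all comparisons. Windows described beyond this rule (at Cxcr5 from 44529001, Cxcr3 from 101728001, Cxcr4 from 128596001, Ccr4 from 114491001 and 114496001, Ccr6 from 8233001, 8239001 and 8255001, Cd3e from 44999001, and the Ccr2 flank) were chosen after their values were seen. The same holds for the Ccr6 windows from 8232001 and 8234001, and for the Ccr4 windows from 114484001 and 114494001. Alternatives changed the read minimum, window size and start, thresholds, flank, strand, weights and depth.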

Additional observations from a re-analysis of the deposited data

How the results depend on the processing

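No paired analysis was possible because each group has 1 library, and for the same reason no library could be left out. The count of receptor windows lower in OX40L-JAG1 Teff than in PBS Teff was 0 instead of 1 with a minimum of 10 reads, positions read in all 4 libraries, 500-base windows, 2-kb windows, windows starting 500 bases later, and read counts divided by 3. The count of windows lower for Treg in the PBS pair was 0 instead of 1 under the same settings other than 2-kb windows. A minimum of 10 reads, or positions read in all 4 libraries, left under 5 positions in the called Ccr4 gene window and in the Cxcr5 window. In those settings neither window could be tested, so these losses were fixed by construction. The counts higher for the treatment in Treg, the PBS pair and the OX40L-JAG1 pair, all from the window past Ccr4, were 0 instead of 1 with 2-kb windows, a 30-point threshold, reads divided by 3 and no flank, and for the treatment in Treg also with a minimum of 10 reads, where the difference was 19.95 points. Without flanks that window is left out by construction. Windows higher in OX40L-JAG1 Teff numbered 1 instead of 0 with 2-kb or shifted windows (Ccr2). With a 10-kb flank the OX40L-JAG1 pair had 2 windows higher, the added one near Ccr8. With positions as strata the PBS pair still had 1 window higher, at Ccr6 in place of Ccr4. The 2-kb window past Ccr4 also takes in the stretch from 114484001, at 95.9% in OX40L-JAG1 Treg and 97.7% in PBS Treg. The part of this, and the cause of the other changes, were not tested. Reads divided by 3 stand for fewer independent molecules, and no receptor window passed at that depth. Of 32 locus differences, 8 changed sign with equal weights and 7 when centred on the median of all genes; of the 30 that could be set, 8 did without flanks and 5 with a minimum of 10 reads. Of 166 window differences, 19 had the opposite sign with positions as strata, none of them called and the widest at 7.59 points pooled.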

Other observations

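Beyond the 5-kb flank, 1 window between 5 and 10 kb from a receptor was called in any comparison. It starts at 120084001 on chromosome 9, upstream of Ccr8, and was methylated in 56.1% of 66 reads in OX40L-JAG1 Treg and 16.5% of 85 reads in OX40L-JAG1 Teff at 11 positions, a difference of 39.6 points (adjusted p = 0.000883, Fisher's exact test).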
